A study of Mus musculus with 4 samples.

Results

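Interferon response genes were followed as a module of 35 named genes, found by symbol among the 57010 genes of a count matrix from mouse lung. Each symbol stood on 1 gene identifier, and values were taken over cells with at least 500 detected genes, by cell class and by pool. The lungs came from C57Bl6/J mice aged 8 weeks. The Cre_Pos mice carried Shh-Cre together with floxed Trp73, in which recombination removes exons 7 to 9 of the gene for the transcription factor p73. The Cre_Neg mice were littermates without Cre, homozygous for the same floxed allele, so the floxed allele was present in both groups. Shh-Cre acts in the lung epithelium, so endothelial and immune cells are not its target cells. Each genotype was 1 pooled suspension of the lungs of 6 mice, from which CD45-positive immune cells were removed and in which EpCAM-positive epithelium was enriched. SPLiT-seq, which barcodes the RNA of fixed cells in rounds of splitting and pooling, was run on both pools in the same 4 sublibraries. The sublibraries are technical aliquots of the pools and no replicate animals, so no test between genotypes was possible. All intervals are 95% intervals for counting error only. They treat UMIs as independent, and are too narrow where a few cells hold most UMIs of a gene.

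Interferons are secreted proteins that tell cells of an infection. Type I and type III interferons signal through JAK kinases to a complex that contains STAT2 and IRF9 and binds a DNA element rich in GAAA repeats, the interferon-stimulated response element. Type II interferon (interferon gamma) acts on another element, the GAS site, and through IRF1. The genes they switch on act against viruses (Ifit, Oas, Mx and Bst2), sense viral nucleic acid (Ifih1, Zbp1 and Eif2ak2) and recruit lymphocytes (Cxcl9 and Cxcl10). Others attack vacuoles of intracellular microbes (the guanylate-binding proteins, Gbp, and the immunity-related GTPases Irgm1, Igtp, Iigp1 and Tgtp2). Many of these genes are also expressed at a low level without infection.

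The module was first described by the sequence before its genes. A RefSeq promoter window on build GRCm38.p6, 250 bases before to 50 after the start, was at hand for 27 of the 35 genes. The response element core, GAAA followed after any 2 bases by GAAA (TTTC repeats on the reverse strand), was searched on both strands and lay in the windows of 17 of these 27 genes (63.0%), against 3.99% of 27025 genes in the whole table. The GAS-type motif TTCNNNGAA lay in 8 of 27 (29.6%), against 9.55% of all genes, and 6 of these 8 also held the GAAA repeat, all but Irf1 and Ifit2. A match is a description of the letters and not a shown binding site. The 250 bases before the start are printed for 3 GTPase genes and 2 antiviral effector genes. The stretches lie at chr3:142620413-142620662 (+ strand) for Gbp2, chr11:58199306-58199555 (+ strand) for Igtp, chr11:49064213-49064462 (- strand) for Tgtp2, chr4:156200819-156201068 (- strand) for Isg15 and chr19:34640639-34640888 (+ strand) for Ifit1. They are written 5′ to 3′ on the strand of the gene, and capitals mark the GAAA repeat or its reverse complement.
Gbp2: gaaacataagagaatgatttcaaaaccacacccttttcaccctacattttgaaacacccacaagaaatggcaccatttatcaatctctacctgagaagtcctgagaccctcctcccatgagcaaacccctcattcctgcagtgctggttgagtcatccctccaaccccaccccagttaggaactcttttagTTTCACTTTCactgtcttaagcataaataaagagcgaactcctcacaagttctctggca
Igtp: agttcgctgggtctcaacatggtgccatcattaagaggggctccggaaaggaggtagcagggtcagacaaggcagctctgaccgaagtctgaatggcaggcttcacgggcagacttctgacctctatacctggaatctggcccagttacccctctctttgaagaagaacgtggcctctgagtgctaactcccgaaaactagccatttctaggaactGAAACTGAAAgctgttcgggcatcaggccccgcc
Tgtp2: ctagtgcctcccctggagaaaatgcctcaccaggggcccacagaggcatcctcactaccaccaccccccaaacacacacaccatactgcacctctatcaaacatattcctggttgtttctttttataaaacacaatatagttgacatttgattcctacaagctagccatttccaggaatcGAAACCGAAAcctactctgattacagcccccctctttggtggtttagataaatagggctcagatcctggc
Isg15: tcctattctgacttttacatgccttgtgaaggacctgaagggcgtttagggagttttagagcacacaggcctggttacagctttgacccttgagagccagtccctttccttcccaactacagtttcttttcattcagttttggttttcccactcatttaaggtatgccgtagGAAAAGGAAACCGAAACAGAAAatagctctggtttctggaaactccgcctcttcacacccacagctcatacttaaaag
Ifit1: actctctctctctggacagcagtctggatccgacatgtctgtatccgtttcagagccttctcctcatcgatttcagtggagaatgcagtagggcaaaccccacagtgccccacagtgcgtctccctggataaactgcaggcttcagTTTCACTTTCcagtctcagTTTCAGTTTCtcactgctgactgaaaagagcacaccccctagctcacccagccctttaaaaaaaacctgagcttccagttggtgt
Isg15 held 3 overlapping matches, the nearest 66 bases before the start, and Ifit1 held 2, the nearest 85 bases before it. The single matches of Gbp2, Igtp and Tgtp2 lay 59, 34 and 70 bases before the start.

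The filters left 16358 cells, 8661 from Cre_Pos and 7697 from Cre_Neg, with 86884074 and 80276057 transcripts (UMIs) and 17639068 to 25616725 UMIs per pool and sublibrary. The study states 20000 cells in all. Of 16290 barcode combinations with at least 500 genes, 285 occurred in more than 1 sublibrary. Classes were named from marker genes, hence "-like", and the composition of the pools differed. Blood endothelium made up 63.5% of Cre_Pos and 35.1% of Cre_Neg cells, and ciliated-like cells 1.40% of Cre_Pos and 15.6% of Cre_Neg cells. The sexes were also mixed unequally. Among ciliated-like cells with a sex call, 96.2% in Cre_Pos and 16.7% in Cre_Neg were Y-only (UMIs of Y-linked genes, 0 of Xist), and in blood endothelium these shares were 3.16% in Cre_Pos and 15.6% in Cre_Neg. Trp73 itself stood at 11.8 CPM (UMIs per 1000000 UMIs; 11.1 to 12.5) in Cre_Pos and 85.8 CPM (83.8 to 87.9) in Cre_Neg over all cells. Within ciliated-like cells, which held 723 of 1023 Trp73 UMIs in Cre_Pos and 6617 of 6890 in Cre_Neg, it stood at 313 CPM (290 to 336) in Cre_Pos and 334 CPM (326 to 342) in Cre_Neg. Counts per gene do not resolve exons 7 to 9, so these values do not check the deletion. The 96.2% Y-only share and the Trp73 level apply to every ciliated-like value of the library labelled Cre_Pos below.

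Over all cells together, 126988 UMIs of Cre_Pos and 85712 UMIs of Cre_Neg belonged to the module, 1462 CPM in Cre_Pos and 1068 CPM in Cre_Neg. That log2 ratio of 0.45 (0.44 to 0.47) mixes level and composition, since endothelium holds much of the module and made up more of the Cre_Pos pool. Comparisons were therefore made within classes, as CPM of the UMIs of the class.

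Every class expressed part of the module, but the mix differed by class. Summed over the 35 genes and both pools, myeloid, mesothelial, lymphoid and endothelial cells were high, and alveolar and airway epithelium were low. Of the 35 genes, 8 had their highest level in monocyte-like, 6 in neutrophil-like, 5 in mesothelial-like and 5 in cluster 25 cells, an unnamed cluster led by Postn and Pdgfrb with endothelial markers. Some of these classes were small and unequal between the pools, with 4 Cre_Pos and 59 Cre_Neg neutrophil-like cells, 30 Cre_Pos and 58 Cre_Neg mesothelial-like cells and 76 Cre_Pos and 20 Cre_Neg cells of cluster 25, so their levels over both pools lean on 1 pool. Rnf213, a very large ubiquitin ligase with antiviral and antibacterial activity, reached 1007 CPM in monocyte-like and 826 CPM in mesothelial-like cells. Oasl2, of the oligoadenylate synthetase family, reached 562 CPM in neutrophil-like cells and 252 CPM in mesothelial-like cells. Trim30a, a ubiquitin ligase that restrains inflammatory signalling, reached 638 CPM and Irf1, a transcription factor of the interferon gamma response, 342 CPM, both in neutrophil-like cells.

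**Figure D1:**
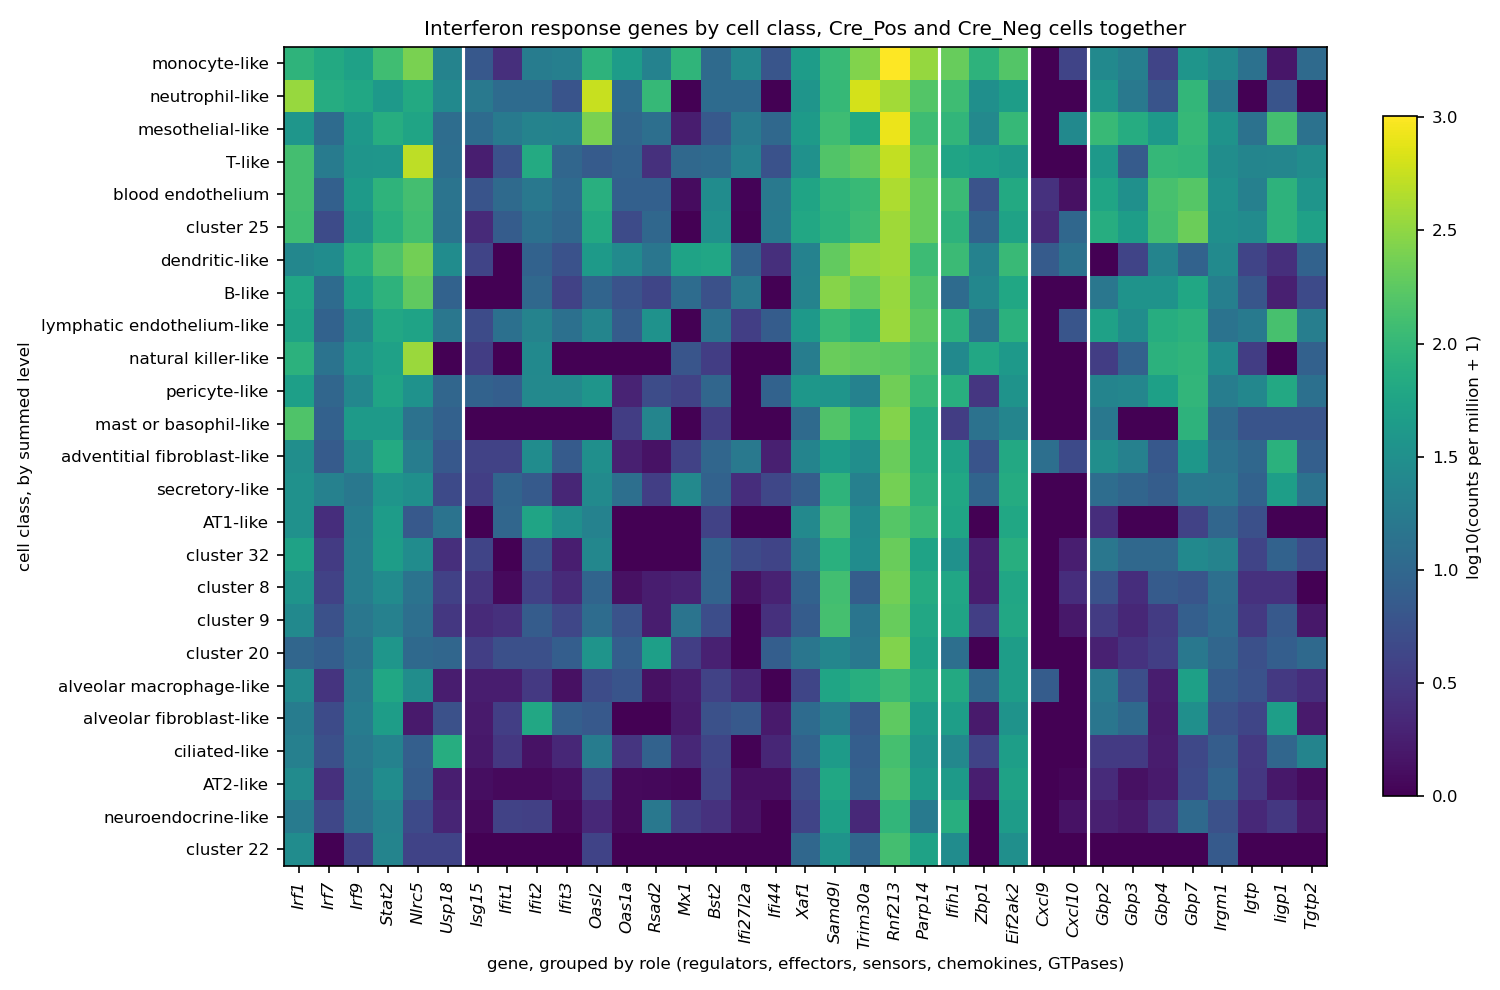
Level of each of the 35 genes (columns, grouped by role) in each cell class (rows, ordered by the summed level), both pools together, as log10 of CPM plus 1. Rnf213 is bright in every row, Nlrc5 is brightest in T-like cells, Usp18 in ciliated-like cells and Gbp4 in blood endothelium.

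Some genes leaned to particular classes. Nlrc5, the transactivator of MHC class I genes, stood at 507 CPM in T-like and 358 CPM in natural killer-like cells, but at 0.647 CPM in alveolar fibroblast-like cells. Mx1, a GTPase against influenza virus that C57BL/6 mice carry in a defective form, reached 90.5 CPM in monocyte-like and 54.4 CPM in dendritic-like cells, and only 3.47% of its UMIs lay in blood endothelium. Ifi27l2a, a small interferon-induced protein, reached 24.1 CPM in monocyte-like and 20.5 CPM in T-like cells, with 1.63% of its UMIs in blood endothelium. Usp18, which removes ISG15 from proteins and dampens interferon receptor signalling, was highest in ciliated-like cells, at 73.0 CPM, ahead of 28.0 CPM in dendritic-like cells. Gbp4 was the member most concentrated in blood endothelium, with 92.0% of its UMIs there and 134 CPM. Ifi44, Gbp7, Gbp2 and Iigp1 followed, with 87.7%, 85.5%, 82.1% and 82.0% of their UMIs in blood endothelium. Such shares follow class size, as blood endothelium held 44209943 of 86884074 UMIs in Cre_Pos and 17879671 of 80276057 in Cre_Neg. By level, cluster 25 exceeded blood endothelium for Gbp7 (210 against 160 CPM) and slightly for Ifi44 (15.7 against 15.3 CPM). Gbp2 was highest in mesothelial-like cells (104 against 56.9 CPM in blood endothelium), and Iigp1 in lymphatic endothelium-like cells (133 CPM). Gbp4 stood at 128 CPM in cluster 25. Barcodes with at most 50 UMIs, taken as free RNA, held Gbp4 at 86.2 CPM in Cre_Pos and 72.4 CPM in Cre_Neg and Iigp1 at 45.5 CPM in Cre_Pos and 39.9 CPM in Cre_Neg, so levels near 1 CPM of such genes in other classes lie far below the free RNA.

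In blood endothelium (5501 Cre_Pos and 2703 Cre_Neg cells) the module was slightly lower in Cre_Pos. It summed to 2135 CPM (2122 to 2149) in Cre_Pos and 2340 CPM (2318 to 2362) in Cre_Neg, a log2 ratio of -0.13 (-0.15 to -0.12). The ratio was below 0 in each sublibrary, between -0.18 and -0.09. Of 33 members with at least 20 UMIs, 28 had a log2 ratio below 0, against 52.4% of 15407 genes, and their median was -0.17, against -0.01 for all genes. The 2-fold limit was passed by 2 members, both lower in Cre_Pos, against 1.57% of all genes, and by 0 members that were higher, against 2.02%. In 7 members all 4 Cre_Pos aliquots lay below all 4 Cre_Neg aliquots, against 5.87% of all genes, and in 0 members above, against 5.6%.

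Among the regulators, 5 of 6 were below 0. Nlrc5 had 125, 104, 114 and 113 CPM in the Cre_Pos aliquots and 170, 149, 166 and 167 CPM in the Cre_Neg aliquots. The aliquots of the pools did not overlap, and the log2 ratio was -0.52 (-0.59 to -0.45). Irf7, which drives the later wave of interferon genes, stood at 6.42 CPM in Cre_Pos and 9.23 CPM in Cre_Neg (log2 ratio -0.52, -0.80 to -0.24). Irf1 went the other way, with 129, 131, 135 and 130 CPM in the Cre_Pos aliquots and 116, 117, 131 and 115 CPM in the Cre_Neg aliquots. Its aliquots overlapped, since 1 Cre_Neg aliquot reached the Cre_Pos values, and the log2 ratio was 0.13 (0.06 to 0.20). Stat2 and Irf9, whose proteins act in 1 complex, stood at -0.13 and -0.15. Per kilobase of exon, Irf1 stood highest among the regulators in endothelium, with 32.2 CPM per kilobase, followed by Stat2 with 15.1 CPM per kilobase. Without the division Nlrc5 came close to Irf1. Irf1 had 5812 UMIs in Cre_Pos and 2147 in Cre_Neg, and Nlrc5 had 4999 in Cre_Pos and 2899 in Cre_Neg.

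The antiviral effectors differed little at the median, but not all were close to 0. Of the 14 measured, 10 were below 0, with a median log2 ratio of -0.13. Rnf213 stood at 425 CPM in Cre_Pos and 421 CPM in Cre_Neg (log2 ratio 0.01, -0.03 to 0.05), and Parp14, an ADP-ribosyltransferase, at 203 CPM in Cre_Pos and 198 CPM in Cre_Neg (0.04, -0.02 to 0.10). Samd9l, which restricts poxviruses, stood at 89.0 CPM in Cre_Pos and 85.1 CPM in Cre_Neg (0.06, -0.02 to 0.15). Isg15, a ubiquitin-like protein, stood at 4.57 CPM in Cre_Pos and 6.38 CPM in Cre_Neg (-0.48, -0.82 to -0.14), but its aliquots overlapped. Rsad2 (300 UMIs in Cre_Pos and 157 in Cre_Neg) and Ifi44 (627 in Cre_Pos and 321 in Cre_Neg) were also lower per UMI of the class. The class held 44209943 UMIs in Cre_Pos and 17879671 in Cre_Neg. Of the 157 Rsad2 UMIs, 19 lay in 1 cell. The Cre_Pos aliquots of Bst2 all lay below the Cre_Neg ones. Ifit1, which binds foreign RNA and holds up its translation, and Ifit3, of the same family, stood at -0.05 and -0.13. Both intervals include 0. Mx1 (15 UMIs in Cre_Pos and 2 in Cre_Neg) and Ifi27l2a (3 UMIs in Cre_Pos and 1 in Cre_Neg) fell short of 20 UMIs.

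Of the nucleic acid sensors, Zbp1, which starts cell death on Z-form nucleic acid, was the lowest. It had 3.88, 4.16, 3.73 and 3.82 CPM in the Cre_Pos aliquots and 5.76, 6.06, 9.0 and 8.77 CPM in the Cre_Neg aliquots. The Cre_Pos aliquots all lay below, and the log2 ratio was -0.92 (-1.25 to -0.58). Ifih1 (MDA5), a sensor of long double-stranded RNA, was nearly level, at 111 CPM in Cre_Pos and 113 CPM in Cre_Neg. Eif2ak2 (PKR), which halts translation on double-stranded RNA, stood at 63.2 CPM in Cre_Pos and 69.0 CPM in Cre_Neg (-0.13, -0.23 to -0.03).

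The chemokines gave the largest ratios from the fewest cells. Cxcl9 had 11 UMIs in Cre_Pos and 93 in Cre_Neg (log2 ratio -4.39, -5.44 to -3.48), and 71 of the 93 lay in 1 cell. Cxcl10 had 9 UMIs in Cre_Pos and 14 in Cre_Neg (-1.94, -3.33 to -0.63). Of the endothelial cells, 6 Cre_Pos and 8 Cre_Neg cells had a UMI of either chemokine. These 14 cells had Gbp2 at 416 CPM, against 55.9 CPM in the other endothelial cells, Gbp4 at 353 against 133 CPM, Irf1 at 441 against 127 CPM and Iigp1 at 177 against 86.9 CPM. These few cells were chosen by Cxcl9 and Cxcl10, and the other genes were not used to choose them. Of their 66 Gbp2 UMIs, 39 lay in the cell with 71 Cxcl9 UMIs. Of their 70 Irf1 UMIs, 21 lay in 1 other cell. The Gbp2 and Irf1 levels thus lean on single cells.

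All 8 GTPases were below 0 in blood endothelium, with a median log2 ratio of -0.20. Iigp1, which loads onto parasite vacuoles, had 80.1, 81.7, 73.8 and 84.3 CPM in the Cre_Pos aliquots and 104, 95.4, 104 and 118 CPM in the Cre_Neg aliquots (log2 ratio -0.39, -0.47 to -0.31). Igtp (Irgm3), a regulatory immunity-related GTPase, had 18.2, 17.1, 18.0 and 18.3 CPM in the Cre_Pos aliquots and 27.1, 20.7, 21.7 and 26.3 CPM in the Cre_Neg aliquots (-0.41, -0.58 to -0.24). In both genes the Cre_Pos aliquots all lay below the Cre_Neg ones. Gbp4 had 122, 119, 119 and 129 CPM in the Cre_Pos aliquots and 175, 128, 164 and 191 CPM in the Cre_Neg aliquots (-0.42, -0.48 to -0.35), with 1 Cre_Neg aliquot inside the Cre_Pos range. Gbp2 (-0.11), Gbp3 (-0.13), Irgm1 (-0.17), Gbp7 (-0.18) and Tgtp2 (-0.22) were closer to 0. Igtp overlaps Irgm2, and Gbp4 overlaps Gbp8 and Gbp9, on the same strand in the annotation, so their counts may be shared with these neighbours. Per kilobase of exon, Gbp7 led the group with 28.5 CPM per kilobase, ahead of Gbp2 with 22.6 and Gbp4 with 17.8 CPM per kilobase. Without the division, Gbp4 (134 CPM) stood above Gbp2 (56.9 CPM), and Gbp7 led with 160 CPM.

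**Figure D2:**
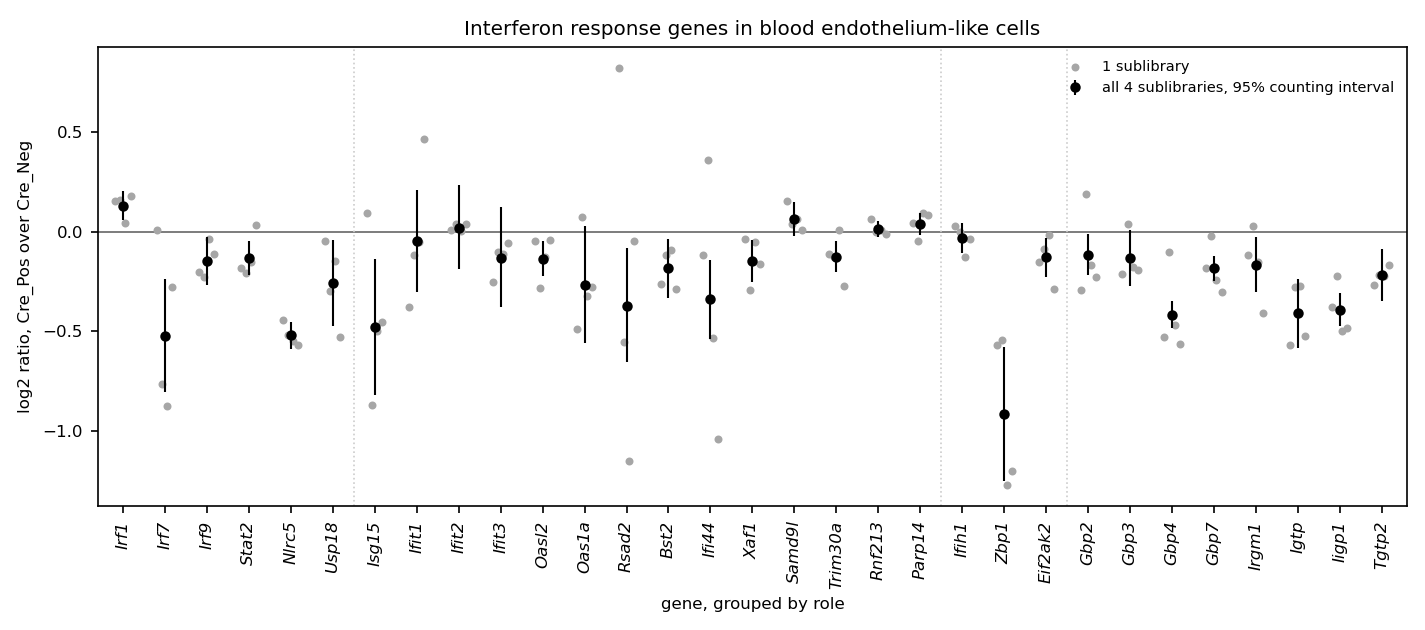
Log2 ratio of Cre_Pos over Cre_Neg (vertical axis) in blood endothelium for 31 members with at least 20 UMIs, without the 2 chemokines. Black points and bars are the pools with 95% counting intervals, and grey points the 4 sublibraries; Nlrc5, Zbp1, Gbp4, Igtp and Iigp1 lie below 0 in each sublibrary, and Rnf213 and Parp14 lie close to 0.

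**Figure D3:**
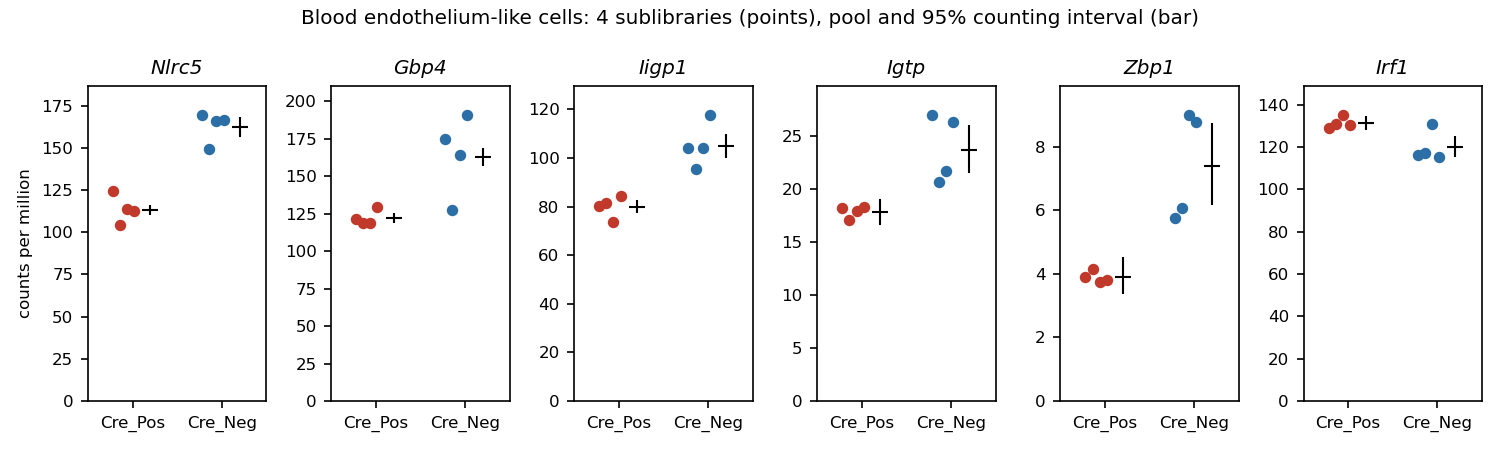
CPM of 6 members in blood endothelium, Cre_Pos left and Cre_Neg right in each panel, with axes from 0. Points are the 4 sublibraries and the bar is the pool with its 95% counting interval; the points of Nlrc5, Iigp1, Igtp and Zbp1 do not overlap between the pools.

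Part of this difference moved with the sex mix. Among cells with Y-linked UMIs only (155 Cre_Pos and 350 Cre_Neg endothelial cells), the log2 ratio of Iigp1 was -1.71 (-2.13 to -1.32), and among cells with Xist only (4746 Cre_Pos and 1890 Cre_Neg cells) it was -0.19 (-0.29 to -0.09). Igtp stood at -1.25 (-1.93 to -0.62) in the Y-only cells and at -0.14 (-0.35 to 0.08) in the Xist-only cells. Within Cre_Neg, the Y-only cells had 155 CPM of Iigp1 and 45.9 CPM of Igtp, against 91.2 and 19.2 CPM in the Xist-only cells. Nlrc5 was lower in Cre_Pos in both, by -0.61 (-0.87 to -0.35) in the Y-only and -0.44 (-0.52 to -0.36) in the Xist-only cells, and so were Gbp4 (-0.70 and -0.29) and Zbp1 (-1.03 and -0.88), though the Y-only interval of Zbp1 (-2.61 to 0.29) includes 0. Some other members changed sign. Irf1 stood at -0.19 (-0.46 to 0.08) in the Y-only and 0.16 (0.08 to 0.25) in the Xist-only cells. Oas1a stood at 1.57 (0.37 to 2.82) in the Y-only and -0.45 (-0.77 to -0.13) in the Xist-only cells. Isg15 stood at 0.74 (-0.71 to 2.15) in the Y-only and -0.56 (-0.95 to -0.16) in the Xist-only cells. Irf9 stood at 0.44 in the Y-only and -0.16 in the Xist-only cells. Sex and the individual animals of a pool cannot be told apart.

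Other interferon genes, 77 of them listed by role, were also mostly below 0 in blood endothelium. Of 64 with at least 20 UMIs, 0 passed the 2-fold limit and 47 were below 0, against the 52.4% of all genes. The aliquots of 15 lay wholly below, against 5.87% of all genes, and those of 4 wholly above, against 5.6%. All 13 genes of antigen processing were below 0, with a median log2 ratio of -0.19, and several are targets of NLRC5. B2m, the light chain of MHC class I, stood at 552 CPM in Cre_Pos and 714 CPM in Cre_Neg (-0.37, -0.40 to -0.34), and H2-K1, a class I heavy chain, at 292 CPM in Cre_Pos and 350 CPM in Cre_Neg (-0.26, -0.31 to -0.22). Tap1, a peptide transporter, stood at 33.2 CPM in Cre_Pos and 42.5 CPM in Cre_Neg (-0.36). Ciita, the transactivator of MHC class II genes, had 46.6, 47.2, 40.9 and 46.5 CPM in the Cre_Pos aliquots and 69.4, 68.4, 81.0 and 82.5 CPM in the Cre_Neg aliquots (-0.73, -0.83 to -0.63). The aliquots of these 4 genes did not overlap between the pools. Socs3, an inhibitor of JAK signalling, went the other way, at 58.5 CPM in Cre_Pos and 36.9 CPM in Cre_Neg (0.67, 0.54 to 0.79), as did Jak1 (0.19, 0.15 to 0.23). None of the 9 listed interferon genes reached 20 UMIs in blood endothelium.

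The subtypes of blood endothelium were read separately. The module summed to 1693 CPM in Cre_Pos and 1842 CPM in Cre_Neg aerocyte-like cells, the large thin capillary cells of gas exchange, and to 2294 CPM in Cre_Pos and 2545 CPM in Cre_Neg general capillary-like cells, which maintain the capillary bed. In arterial-like cells it summed to 2386 CPM in Cre_Pos and 2408 CPM in Cre_Neg. In general capillary-like cells, 10 of 32 measured members had all Cre_Pos aliquots below all Cre_Neg aliquots, against 5.18% of all genes, and 2 members, Irf1 and Samd9l, had them above, against 4.7%. In aerocyte-like cells 4 of 31 lay wholly below, against 3.34% of all genes, namely Irf7, Nlrc5, Ifit3 and Trim30a. The general capillary-like class includes cluster 13 (170 Cre_Pos and 116 Cre_Neg cells), which expressed all 7 capillary markers but was led by Slc6a2, Vwf, Vegfc and Prss23, on the list of venous endothelium. Without cluster 13, an alternative added after seeing the data, the general capillary-like sum was 2278 CPM in Cre_Pos and 2517 CPM in Cre_Neg (-0.14, -0.16 to -0.12). Then 10 of 31 members lay wholly below, against 5.12% of all genes, with Zbp1 in place of Stat2, and 1 wholly above, Irf1, against 5.06%.

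The capillary types were then set against each other within each pool. In Cre_Pos, 10 of 31 measured members were at least 2-fold lower in aerocyte-like than in general capillary-like cells, against 12.2% of 14238 genes, and 0 were at least 2-fold higher, against 6.63%. In Cre_Neg, 6 of 32 were lower, against 12.5% of 12413 genes, and 0 were higher, against 6.72%. Of the 8 GTPases, 5 passed in each pool, namely Gbp2, Gbp3, Gbp4, Gbp7 and Iigp1. Without cluster 13, 9 members were at least 2-fold lower in Cre_Pos, against 11.6% of all genes, with Isg15 just short of the limit (-0.99), and 6 in Cre_Neg, against 11.5%, with the same 5 GTPases in each pool. In Cre_Pos 0 members were then at least 2-fold higher, against 6.72%, and in Cre_Neg 1, Cxcl9, against 7.04%. The pools share 1 clustering, which sets these types and was made without the interferon genes.

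Iigp1 had the largest gap among the GTPases. In Cre_Pos it had 5.82, 16.4, 27.1 and 23.5 CPM in the aerocyte-like aliquots and 110, 108, 87.2 and 103 CPM in the general capillary-like aliquots (log2 ratio -2.50, -2.70 to -2.30). In Cre_Neg it had 26.2, 16.5, 31.7 and 14.1 CPM in the aerocyte-like and 139, 125, 132 and 157 CPM in the general capillary-like aliquots (-2.65, -2.94 to -2.36). No aliquot of 1 type came near the other. Gbp2 stood at 17.1 CPM in aerocyte-like and 68.1 CPM in general capillary-like cells of Cre_Pos (-1.99), and at 20.5 CPM in aerocyte-like and 74.2 CPM in general capillary-like cells of Cre_Neg (-1.85). Gbp4 stood at 52.2 CPM in aerocyte-like and 148 CPM in general capillary-like cells of Cre_Pos (-1.51), and at 67.5 CPM in aerocyte-like and 206 CPM in general capillary-like cells of Cre_Neg (-1.61). The regulatory GTPases showed smaller gaps, with log2 ratios for Irgm1 of -0.75 in Cre_Pos and -0.86 in Cre_Neg, and for Igtp of -0.68 in Cre_Pos and -0.81 in Cre_Neg. Zbp1 was low in aerocyte-like cells, with 7 aerocyte-like and 150 general capillary-like UMIs in Cre_Pos, and 9 aerocyte-like and 107 general capillary-like UMIs in Cre_Neg. Samd9l was higher in aerocyte-like cells, at 107 CPM in aerocyte-like and 80.5 CPM in general capillary-like cells of Cre_Pos (0.41, 0.31 to 0.51), and at 109 CPM in aerocyte-like and 74.8 CPM in general capillary-like cells of Cre_Neg (0.55, 0.39 to 0.70). Irf1 was not lower in aerocyte-like cells either, at 135 CPM in aerocyte-like and 131 CPM in general capillary-like cells of Cre_Pos (0.05), and at 142 CPM in aerocyte-like and 110 CPM in general capillary-like cells of Cre_Neg (0.37). The ratio was also above 0 for Ifit2 in both pools (0.20 in Cre_Pos and 0.06 in Cre_Neg) and for Irf9 in Cre_Pos (0.01). Stat2 was nearly level between the types, with a log2 ratio of -0.06 in both pools.

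**Figure D4:**
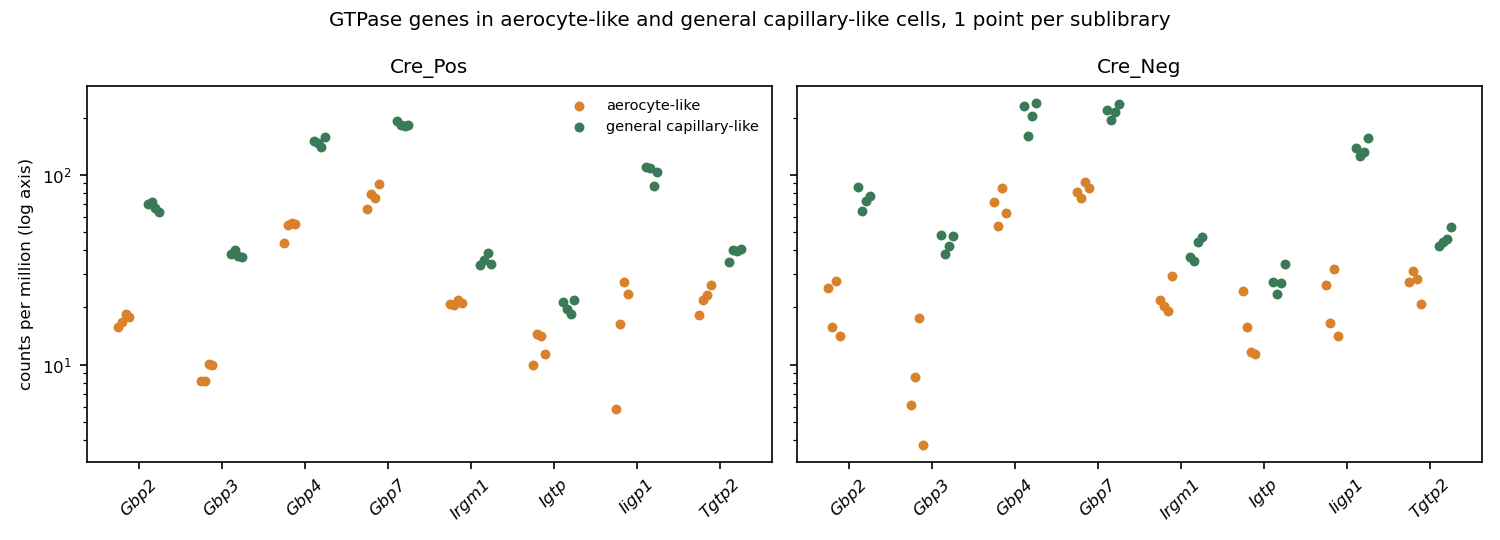
CPM (log axis) of the 8 GTPase genes in aerocyte-like and general capillary-like cells, Cre_Pos left and Cre_Neg right, 1 point per sublibrary. The aerocyte-like points of Gbp2, Gbp3, Gbp4, Gbp7 and Iigp1 lie below the general capillary-like points in both pools.

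AT2-like cells, the surfactant-producing cells of the alveolus and a target of Shh-Cre, had a low and nearly equal module. It summed to 476 CPM (466 to 486) in 1202 Cre_Pos cells and 446 CPM (437 to 454) in 1781 Cre_Neg cells (log2 ratio 0.10, 0.05 to 0.14). Rnf213 accounted for much of it, with 166, 158, 146 and 161 CPM in the Cre_Pos aliquots and 134, 135, 136 and 134 CPM in the Cre_Neg aliquots (0.23, 0.15 to 0.30). These aliquots did not overlap, and 1 of 22 measured members lay wholly above, against 4.45% of all genes. Without Rnf213 the summed log2 ratio was 0.04. Of the 22, 2 members were at least 2-fold higher in Cre_Pos, against 1.31% of all genes, both on few UMIs. Iigp1 had 17 UMIs in Cre_Pos and 6 in Cre_Neg (1.77, 0.36 to 3.40), 9 of the 17 in 1 cell. Gbp4 had 17 UMIs in Cre_Pos and 9 in Cre_Neg (1.19, -0.06 to 2.53). These levels, 0.924 CPM in Cre_Pos for each gene, lie far below the free RNA of either gene, whose part was not tested. Samd9l stood at 61.7 CPM in Cre_Pos and 59.1 CPM in Cre_Neg, and Eif2ak2 at 50.4 CPM in Cre_Pos and 54.0 CPM in Cre_Neg. Stat2 (0.20), Bst2, which tethers virus particles (0.44), Xaf1, a promoter of apoptosis (-0.16), Ifih1 (-0.01), Zbp1 (-0.20), Irgm1 (-0.09) and Usp18 (-0.59) completed the list of extremes per role. Among the other interferon genes, H2-K1 stood at 167 CPM in Cre_Pos and 134 CPM in Cre_Neg AT2-like cells (0.32) and H2-D1 at 168 CPM in Cre_Pos and 139 CPM in Cre_Neg (0.27), above 0 where both were below 0 in endothelium.

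Clusters 8 and 9 expressed AT2 markers together with markers of other epithelia, Lgals3 and Areg in cluster 8 and Scgb1a1 in cluster 9, and stayed unnamed. In cluster 8 (222 Cre_Pos and 193 Cre_Neg cells) the module summed to 759 CPM in Cre_Pos and 648 CPM in Cre_Neg (0.23), and 3 of 17 measured members were at least 2-fold higher in Cre_Pos, against 1.85% of all genes. Gbp4 had 29 UMIs in Cre_Pos and 5 in Cre_Neg (2.01, 0.63 to 3.74), Gbp2 had 21 in Cre_Pos and 5 in Cre_Neg (1.55, 0.10 to 3.31), and Trim30a had 27 in Cre_Pos and 9 in Cre_Neg (1.06, -0.07 to 2.34). All Trim30a aliquots of Cre_Pos lay above those of Cre_Neg, as did those of 2.08% of all genes. Of the 29 Gbp4 UMIs, 11 lay in 1 cell. In cluster 9 (239 Cre_Pos and 176 Cre_Neg cells) it summed to 737 CPM in Cre_Pos and 605 CPM in Cre_Neg (0.28), and 4 of 21 members were at least 2-fold higher in Cre_Pos, against 5.94% of all genes. Mx1 had 89 UMIs in Cre_Pos, 48 of them in 1 cell, and 2 in Cre_Neg (4.57, 2.68 to 7.64). Iigp1 had 38 UMIs in Cre_Pos and 2 in Cre_Neg (3.35, 1.39 to 6.44), Gbp7 had 39 in Cre_Pos and 10 in Cre_Neg (1.06), and Ifit3 had 19 in Cre_Pos and 4 in Cre_Neg (1.35, -0.24 to 3.36). The cell with 48 Mx1 UMIs also held 9 of the 19 Ifit3, 8 of the 38 Iigp1 and 4 of the 39 Gbp7 UMIs, so the 4 members are not separate observations. The Iigp1 aliquots of cluster 9 had 5, 10, 14 and 9 UMIs in Cre_Pos and 0, 0, 1 and 1 in Cre_Neg, and did not overlap in CPM, against 6.04% of all genes that lay wholly above.

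Neuroendocrine-like cells, the rare sensory cells of the airway, had 401 CPM in Cre_Pos and 372 CPM in Cre_Neg (0.11). Rsad2 (viperin), which makes a chain-terminating nucleotide, was the 1 of 11 measured members at least 2-fold higher in Cre_Pos, against 3.1% of all genes, with 68 UMIs in Cre_Pos and 5 in Cre_Neg (2.87, 1.58 to 4.54). A single Cre_Pos cell held 50 of the 68, and without it the ratio was 0.96. That cell had UMIs of 4 of the 35 genes, against a class median of 3.

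Ciliated-like cells had nearly the same summed level in both pools. The sum was 520 CPM (491 to 551) in 121 Cre_Pos cells and 526 CPM (516 to 536) in 1204 Cre_Neg cells (log2 ratio -0.01, -0.10 to 0.07). Of 29 measured members, 2 were at least 2-fold higher in Cre_Pos, against 3.08% of all genes, and 3 at least 2-fold lower, against 4.72%. Tgtp2, an immunity-related GTPase, had 10.6, 3.97, 2.59 and 13.4 CPM in the Cre_Pos aliquots and 20.0, 23.2, 26.5 and 24.8 CPM in the Cre_Neg aliquots (-1.77, -2.59 to -1.05). The aliquots did not overlap, which in this direction held for 2 members, Tgtp2 and Igtp, against 4.58% of all genes. Igtp had 0 UMIs in Cre_Pos and 47 in Cre_Neg, at least 1.83-fold lower in Cre_Pos at a floor of 3 counts. Nlrc5 had 7 UMIs in Cre_Pos and 152 in Cre_Neg (-1.34, -2.68 to -0.26), 36 of the 152 in 1 cell. Iigp1 had 9 in Cre_Pos and 185 in Cre_Neg (-1.26, -2.41 to -0.31), 45 of the 185 in 1 cell. Mx1 had 14 UMIs in Cre_Pos, 11 of them in 1 cell, and 12 in Cre_Neg (3.32, 2.10 to 4.56), and Ifit3 had 5 in Cre_Pos, 4 of them in 1 cell, and 21 in Cre_Neg (1.03, -0.73 to 2.47). Without the cell that held 11 Mx1 UMIs, the Mx1 ratio was 1.11. Tgtp2 has a near-identical neighbour, Tgtp1, and Ifit3 has Ifit3b, so reads of these pairs may be split between them.

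Usp18 marked the ciliated-like cells in both pools alike. It had 101, 57.5, 47.9 and 67.2 CPM in the Cre_Pos aliquots and 72.8, 69.0, 80.7 and 72.8 CPM in the Cre_Neg aliquots (-0.11, -0.35 to 0.13). Per kilobase of exon, at 26.2 CPM per kilobase, it exceeded Eif2ak2 with 9.33 and Rnf213 with 7.77 CPM per kilobase in these cells. Without the division by exon length Rnf213 was ahead, with 320 UMIs in Cre_Pos and 2582 in Cre_Neg. Usp18 had 158 UMIs in Cre_Pos and 1456 in Cre_Neg. Eif2ak2 (-0.24), Rnf213 (0.09), Irf7 (0.67), Oas1a, an oligoadenylate synthetase (-0.19), Ifih1 (0.46), Zbp1 (-0.86) and Irgm1 (0.31) completed the list, and of these only the interval of Ifih1 excludes 0.

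A small set of ciliated-like cells held much of the GTPase signal. Cells with at least 10 UMIs of the 8 GTPases numbered 19, 1 of 121 in Cre_Pos (0.826%) and 18 of 1204 in Cre_Neg (1.5%). They held 46.8% of the GTPase UMIs of the class. The limit was set after the data were seen, and the GTPase values that chose the cells are no finding. The other 27 members were not used. Of these, 23 stood higher in the 19 cells than in the other 1306. Their intervals did not overlap, but they treat UMIs of the same cell as independent. The other 4 (Ifit2, Ifi27l2a, Cxcl9 and Cxcl10) had 0 UMIs in the 19 cells. The share of all genes that stood higher in this way is not given. The 23 thus have no value beside them, and their count is no result about the members. Some of the 23 rest on few cells, as Mx1 with 16 UMIs in 2 of the 19 cells and Isg15 with 7 UMIs in 3. Nlrc5 stood at 181 CPM (145 to 222) in the 19 cells and 3.19 CPM (2.48 to 4.04) in the others. Of its 90 UMIs in the 19 cells, 36 lay in 1 cell. Zbp1 stood at 94.3 CPM in the 19 cells and 0.879 CPM in the others, and Ifit1 at 44.1 CPM in the 19 cells and 1.06 CPM in the others. Irf1, Stat2 and Oasl2 stood at 126, 136 and 197 CPM in the 19 cells and at 17.1, 17.9 and 12.9 CPM in the others. Usp18 and Eif2ak2 differed least, at 187 and 84.2 CPM in the 19 cells and 70.4 and 46.9 CPM in the others. Cxcl9 and Cxcl10 also had 0 UMIs in the other 1306 cells.

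**Figure D5:**
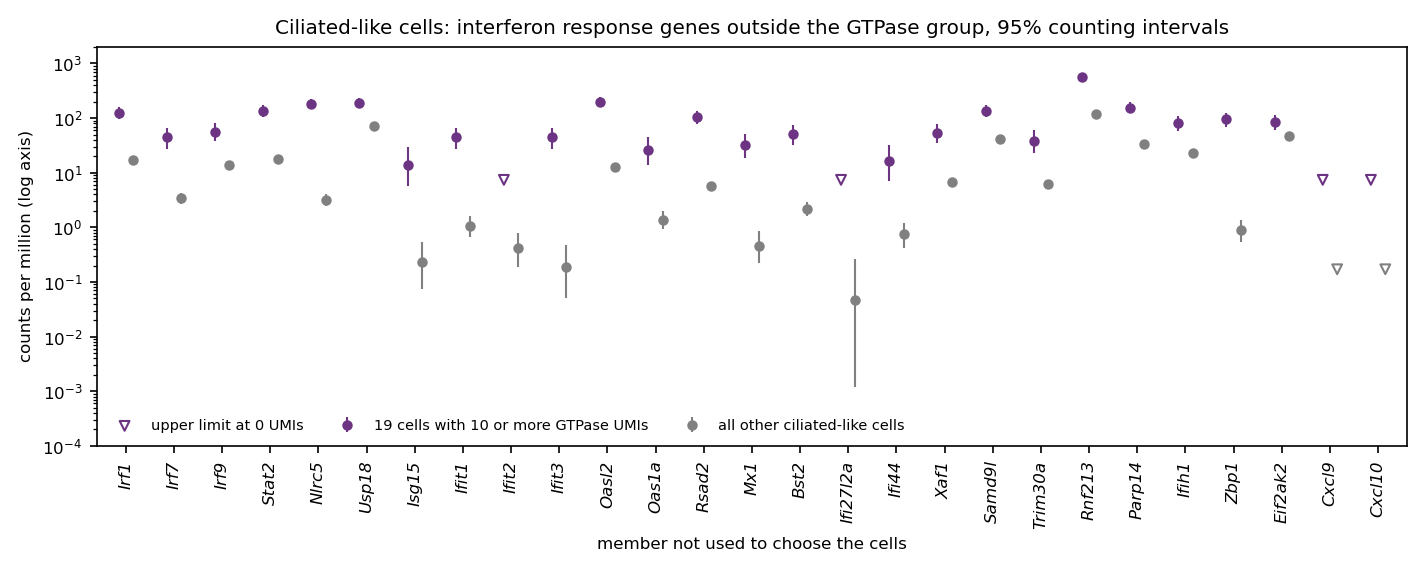
CPM (log axis) of the 27 members outside the GTPase group in the 19 ciliated-like cells with at least 10 GTPase UMIs (left of each pair) and the other 1306 ciliated-like cells, with 95% counting intervals. Open triangles are upper limits at 0 UMIs. In the 19 cells 23 members stand higher, a count with no share of all genes beside it.

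These 19 cells were deeper, with a median of 27598 UMIs against 15774 in the others. Their ciliated markers summed to 12990 CPM, against 13276 CPM in the others, their general capillary markers to 18.1 against 27.6 CPM, their T cell markers to 0 against 0.370 CPM and their monocyte markers to 44.1 against 25.9 CPM. They came from all 4 sublibraries, with 3, 6, 5 and 5 cells. By sex call, they were 1 of 101 Y-only Cre_Pos cells (0.990%, 0.0251 to 5.39), 12 of 177 Y-only Cre_Neg cells (6.78%, 3.55 to 11.5) and 5 of 886 Xist-only Cre_Neg cells (0.564%, 0.183 to 1.31). The summed module followed the same split, at 525 CPM in Y-only Cre_Pos cells, 888 CPM in Y-only Cre_Neg cells and 459 CPM in Xist-only Cre_Neg cells. The equal sums of the pools thus set Cre_Pos cells that are nearly all Y-only beside Cre_Neg cells that are mostly Xist-only. Without the 19 cells the log2 ratio of Iigp1 was 0.26 in place of -1.26. The 19 cells also held 90 UMIs of Nlrc5 and 25 of Igtp, against 69 and 22 in the other 1306 cells.

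Single epithelial cells with most of the module occurred in both pools. The ciliated-like cell with most UMIs of the module (Cre_Neg, Y-only) had 335 of its 40771 UMIs from 30 of the 35 genes, against a class median of 4 genes, and 8 of 1325 ciliated-like cells had 20 or more. In AT2-like cells 1 of 2983 cells had 20 or more, a Cre_Pos cell with 177 UMIs from 26 genes. In cluster 8 it was 1 of 415 cells, a Cre_Pos cell with 169 UMIs from 26 genes. In cluster 9 it was 2 of 415, and the top cell, from Cre_Pos, had 284 UMIs from 28 genes, 108 of them of Rnf213 and 48 of Mx1. No cell of the neuroendocrine-like class reached 20 genes.

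B-like and monocyte-like cells, which the CD45 depletion left behind, were lower in Cre_Pos. The module summed to 1495 CPM (1422 to 1571) in 183 Cre_Pos and 1904 CPM (1831 to 1978) in 222 Cre_Neg B-like cells (log2 ratio -0.35, -0.44 to -0.26). Of 22 measured members, 19 were below 0, against 46.5% of all genes, with a median of -0.62, and 4 were at least 2-fold lower in Cre_Pos, against 5.2% of all genes. Nlrc5 had 161, 113, 109 and 81.4 CPM in the Cre_Pos aliquots and 221, 262, 261 and 213 CPM in the Cre_Neg aliquots (-1.01, -1.31 to -0.71). Gbp2 had 3 UMIs in Cre_Pos and 32 in Cre_Neg (-3.03, -5.38 to -1.35), and Zbp1 had 13 in Cre_Pos and 45 in Cre_Neg (-1.41, -2.42 to -0.49). In these 3 genes and in Trim30a and Gbp7, 5 members, the Cre_Pos aliquots lay wholly below, against 3.7% of all genes. Ifit2 had 5 UMIs in Cre_Pos and 18 in Cre_Neg (-1.46, -3.25 to 0.02). Trim30a stood at 156 CPM in Cre_Pos and 231 CPM in Cre_Neg (-0.56, -0.84 to -0.29), Samd9l at 274 CPM in Cre_Pos and 297 CPM in Cre_Neg (-0.12), and Rnf213 at 346 CPM in Cre_Pos and 351 CPM in Cre_Neg (-0.02). The Y-only share was 2.55% in Cre_Pos and 25.7% in Cre_Neg B-like cells, and within Cre_Neg the module summed to 2208 CPM in Y-only and 1651 CPM in Xist-only cells. In Xist-only cells of Cre_Pos it summed to 1471 CPM. The B-like cells formed clusters 11 and 29, and cluster 29 held 8 of the 183 Cre_Pos and 67 of the 222 Cre_Neg cells. In cluster 11 alone, an alternative added after seeing the data, the module summed to 1554 CPM in 175 Cre_Pos and 2011 CPM in 155 Cre_Neg cells (-0.37, -0.48 to -0.27). There Nlrc5 stood at 119 CPM in Cre_Pos and 260 CPM in Cre_Neg (-1.13, -1.47 to -0.79), and its aliquots still did not overlap. Those of Gbp2 (3 UMIs in Cre_Pos and 15 in Cre_Neg), Zbp1 (13 in Cre_Pos and 25 in Cre_Neg), Trim30a and Gbp7 overlapped, and the ratio of Gbp7 was -0.18, against -0.87 in all B-like cells.

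In monocyte-like cells the module summed to 2870 CPM in 124 Cre_Pos and 3666 CPM in 134 Cre_Neg cells (-0.35), and the sublibraries ranged from -1.16 to 0.44. Of 26 measured members, 25 were below 0, against 49.6% of all genes, with a median of -0.45, and 3 were at least 2-fold lower in Cre_Pos, against 3.12%. Gbp3 had 10 UMIs in Cre_Pos and 26 in Cre_Neg (-1.40, -2.62 to -0.30), Rsad2 had 12 in Cre_Pos and 27 in Cre_Neg (-1.20, -2.31 to -0.17), and Gbp2 had 16 in Cre_Pos and 33 in Cre_Neg (-1.07, -2.03 to -0.17). Ifih1 stood at 151 CPM in Cre_Pos and 252 CPM in Cre_Neg (-0.74, -1.04 to -0.43), with 55 of 239 Cre_Neg UMIs in 1 cell. Rnf213 (-0.14), Parp14 (-0.28) and Trim30a (-0.39), the 3 most abundant members, were closer to 0. Each monocyte-like sublibrary rests on few cells, and the ratio of sublibrary 4 ran against the other 3.

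The share of cells with several members was compared at equal depth, with each cell thinned to 2000 UMIs. In blood endothelium, 55.3% (53.9 to 56.6) of Cre_Pos and 57.4% (55.4 to 59.4) of Cre_Neg cells then had UMIs of at least 3 members, and at full depth 91.6% of Cre_Pos and 87.2% of Cre_Neg cells did. In monocyte-like cells these were 60.0% in Cre_Pos and 73.8% in Cre_Neg, and in B-like cells 34.8% in Cre_Pos and 43.5% in Cre_Neg. In AT2-like cells the shares were 4.58% in Cre_Pos and 3.79% in Cre_Neg, and in ciliated-like cells 1.67% (0.202 to 5.89) in Cre_Pos and 5.16% (3.98 to 6.56) in Cre_Neg. Clusters 8 and 9 stood between, at 12.4% and 13% in Cre_Pos and 6.88% and 5.92% in Cre_Neg. The intervals of the pools overlapped in each of these classes.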

How the data were processed

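The deposited matrix held UMI counts per gene and barcode from SPLiT-seq (Evercode WT v2 per the labels' protocols), raw counts as the authors made them and unfiltered, with 647296 barcodes and 57010 genes. For the aligner, its version and settings: not given in the sources used here. The gene table of the files and the labels name different builds (mm10 and GRCm39), so no coordinates of the files are given. Barcodes had to show 500 or more genes (16579 did) and no more than 15% of UMIs from mitochondria, and 183 doublets called by Scrublet (1.11%) were removed, which left 16358 cells. Cells were clustered with scanpy 1.11.5 and leidenalg 0.10.2 on variable genes without the interferon genes. A cluster was named where at least 3 listed markers stood at least 4-fold over the median cluster in at least 10% of its cells and its leading genes did not hold more markers of another lineage or class, and 8 of 39 clusters stayed unnamed. Clusters 3 (AT2-like) and 13 (general capillary-like) were named although none of their name's markers was among their 10 leading genes. CPM is the summed count of a gene in a class and pool per 1000000 UMIs there. Ratios are log2 of Cre_Pos over Cre_Neg with exact conditional binomial intervals, levels have exact Poisson and shares exact Clopper-Pearson intervals, all at 95% and for counting error only (scipy 1.17.1), and 3 counts were the floor. Classes with at least 100 cells in each pool were compared. Members were named by rule: those with at least 20 UMIs and a 2-fold ratio in a compared class, the 3 with the highest CPM in each, and those with the highest and lowest ratio of each role in AT2-like, ciliated-like and endothelial cells. Members outside the rule that are named for their aliquots, their counts or their sex split were chosen after their values were seen. Sex was called from Xist and 4 Y-linked genes (Uty, Kdm5d, Ddx3y and Eif2s3y). The ratio, its interval and the 2-fold rule were tested on simulated Poisson counts, without the spread between cells. The other steps were not tested in this way. The members and lists were chosen with earlier results of these data known. A result on 1 further gene is not reported here.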

Additional observations from a re-analysis of the deposited data

Results flagged for a closer look

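Of 116 groups of 4 aliquots, 6 had an aliquot far from the other 3, and chance flags about 1 in 20 groups. In blood endothelium, Irf1 stood at 131 CPM in the third Cre_Neg aliquot. In ciliated-like cells of Cre_Pos, the fourth aliquot had a summed module of 906 CPM and Rnf213 at 293 CPM. Mx1 stood at 54.5 CPM in the second Cre_Pos aliquot of cluster 9, which holds the cell with 48 Mx1 UMIs. Rsad2 stood at 61.4 CPM in the third Cre_Pos aliquot of neuroendocrine-like cells, which holds the cell with 50 Rsad2 UMIs. Gbp2 stood at 55.6 CPM in the second Cre_Neg aliquot of monocyte-like cells.

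In some pairs of classes, every aliquot ratio of one class lay above 0 and every aliquot ratio of the other below 0. The summed module had a log2 ratio of 0.10 in AT2-like cells and -0.13 in blood endothelium. Trim30a had 1.06 in cluster 8 and -0.56 in B-like cells. Gbp4 had 1.19 in AT2-like cells and 2.01 in cluster 8, against -0.42 in blood endothelium. Gbp7 had 1.06 in cluster 9 and -0.18 in blood endothelium. These differences between classes were not tested.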

How the results depend on the processing

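No paired analysis was possible because each genotype was 1 pool, and the shared sublibrary numbers mark technical aliquots. Of 555 alternative values of named genes, 506 kept their sign within the spread of the aliquots, 43 moved and 6 reversed. Of the alternative values of the sums, counts and shares, 140 stayed and 51 moved. In Y-only cells Ifit3 stood at -0.65 in ciliated-like cells and -2.08 in cluster 9, where Mx1 and Gbp7 each stood at -1.34. Ifit3 in ciliated-like cells ranged from -0.68 (without sublibrary 4) to 1.33 when 1 sublibrary was left out. Without the 19 cells with many GTPase UMIs, an alternative chosen after seeing the data, Iigp1 in ciliated-like cells stood at 0.26. Then 3 members passed the 2-fold limit there, and the share of all genes in this setting is not given.

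The summed log2 ratio in Y-only cells was -0.19 in blood endothelium, 0.0063 in AT2-like cells, -0.76 in ciliated-like cells, -0.36 in cluster 9 and -0.56 in neuroendocrine-like cells. In AT2-like cells it was 0.18 at a clustering resolution of 2 and 0.035 without Rnf213. With 1 sublibrary left out, it ranged from -0.15 to -0.12 in blood endothelium, 0.09 to 0.11 in AT2-like cells, -0.22 to 0.11 in ciliated-like cells, 0.14 to 0.29 in cluster 8, 0.04 to 0.52 in cluster 9, -0.48 to -0.23 in B-like cells, 0.02 to 0.20 in neuroendocrine-like cells and -0.61 to -0.11 in monocyte-like cells.

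The counts in this paragraph have no share of all genes under the same rule beside them, so they are no result about the members. At a minimum of 100 UMIs, the number of members past 2-fold was 1 in blood endothelium and 3 in ciliated-like cells. It was 1 in B-like cells and 0 in the other compared classes. With no minimum it was 6 in AT2-like cells, 10 in cluster 8, 9 in cluster 9, 7 in B-like, 8 in neuroendocrine-like and 9 in monocyte-like cells. With the filter of 500 genes alone it was 0 in AT2-like cells. With 1 sublibrary left out, it ranged from 1 to 2 in blood endothelium and in AT2-like cells, 3 to 7 in ciliated-like cells, 0 to 4 in cluster 8 (0 without sublibrary 3), 2 to 8 in cluster 9 (8 without sublibrary 1), 1 to 5 in B-like cells (1 without sublibrary 2), 0 to 2 in neuroendocrine-like cells (0 without sublibrary 3) and 2 to 11 in monocyte-like cells (11 without sublibrary 4).

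The share of cells with at least 3 members depends on depth by construction. At full depth and at 1000 UMIs it was 91.6% and 26.8% in Cre_Pos and 87.2% and 28.7% in Cre_Neg blood endothelium, 73.1% and 0.832% in Cre_Pos and 62.1% and 0.899% in Cre_Neg for AT2-like cells, and 91.1% and 39.0% in Cre_Pos and 96.3% and 38.1% in Cre_Neg monocyte-like cells. In ciliated-like cells it was 73.6% in Cre_Pos and 77.3% in Cre_Neg at full depth, and 1.99% in Cre_Neg at 1000 UMIs. The cause of the other changes was not tested.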

Other observations

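Classes with fewer than 100 cells in a pool entered no comparison, and some had wide gaps in the summed module. Pericyte-like cells summed to 886 CPM in 82 Cre_Pos cells and 2463 CPM in 20 Cre_Neg cells. A single Cre_Neg pericyte-like cell held 16763 of the 165644 UMIs of that pool. It had 61 UMIs of Rnf213, 26 of Parp14, 24 of Iigp1 and 17 of Ifit3, so the Cre_Neg level leans on this cell. Mesothelial-like cells summed to 1891 CPM in 30 Cre_Pos cells and 2860 CPM in 58 Cre_Neg cells, and secretory-like cells to 734 CPM in 49 Cre_Pos cells and 1008 CPM in 165 Cre_Neg cells. Cluster 20, led by Cdc20b, Deup1 and Mcidas, went the other way, with 807 CPM in 66 Cre_Pos cells and 487 CPM in 64 Cre_Neg cells. A single Cre_Pos cell held 48702 of the 699141 UMIs of that pool. It had 103 UMIs of Rnf213, 21 of Oasl2 and 18 each of Rsad2, Parp14 and Eif2ak2, so the Cre_Pos level leans on this cell.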
